A study of Mus musculus with 45 samples.

Results

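The genes described here are 10 chaperones and folding factors of the mouse endoplasmic reticulum, chosen by name from the families that bind or refold newly made secretory proteins: Hspa5, Hsp90b1, Calr, Canx, Pdia4, Pdia6, Dnajb11, Hyou1, Sdf2l1 and Manf. All 10 were found among the 36300 genes of the deposited tables, and all 10 passed the filter on low counts in every comparison. Their messenger RNA was measured by RNA sequencing in forelimb buds of CD1 mouse embryos taken at gestation day 13, with the limbs of male and female embryos pooled in each culture bottle. The cultures received dimethyl sulfoxide (DMSO, the vehicle), 10 µM bisphenol A (BPA, a plastics monomer with weak oestrogenic activity) or 50 µM BPA, and were kept for 3 h, 24 h or 48 h, with 5 libraries in each of the 9 groups. The series title names endochondral ossification as its subject, and the comparison asks how BPA in the medium altered gene expression in the limb as its cartilage formed. No genetic alteration is given for any group, and limb buds in a bottle lack the circulation and the maternal metabolism of BPA that they have in the uterus. Nothing in the labels ties the 5 libraries of a group to separate litters or bottles. All p-values therefore speak only of the variation among the libraries at hand, which may be technical.

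The endoplasmic reticulum is where secreted and membrane proteins enter the secretory pathway and fold. Its lumen holds Hsp70 and Hsp90 family chaperones, lectin chaperones that bind sugar chains on new glycoproteins, and protein disulfide isomerases that form and rearrange disulfide bonds. When unfolded proteins gather there, the sensors encoded by Ern1, Eif2ak3 and Atf6 start the unfolded protein response, and ATF6 and spliced XBP1 then bind stress elements in the promoters of many chaperone genes and raise their transcription. Chondrocytes and osteoblasts secrete large amounts of collagen and proteoglycan and are known to depend on this folding machinery.

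Members of the Hsp70 system come first. Hspa5 encodes BiP, the main Hsp70 chaperone of the lumen and the protein that holds the stress sensors inactive, and it lies at chr2:34771970-34777547 on the plus strand of mm10. Its partners are Dnajb11 (ERdj3, a J-domain cochaperone, chr16:22857845-22879634, plus strand), Hyou1 (a large Hsp70 relative that exchanges the nucleotide of BiP, chr9:44379490-44392369, plus strand), Sdf2l1 (a partner of ERdj3, chr16:17130138-17132383, minus strand) and Manf (a BiP-binding neurotrophic factor that is retained in the lumen or secreted, chr9:106838312-106891979, minus strand). Hsp90b1 encodes the Hsp90 chaperone of the lumen and lies at chr10:86690209-86705509 on the minus strand. The lectin chaperones are Calr (soluble calreticulin, also a calcium store, chr8:84841850-84846934, minus strand) and Canx (its membrane relative calnexin, chr11:50293961-50325673, minus strand). The disulfide isomerases are Pdia4 (chr6:47796141-47813430, minus strand) and Pdia6 (chr12:17266545-17284770, plus strand). In the GENCODE annotation of mm10, exons of other genes covered 15.7% of the exon bases of Hsp90b1, 9.25% of Manf, 1.34% of Pdia6 and 0.584% of Pdia4, and none of the other 6 genes. No source used here states whether reads were counted by strand, and the counts of Hsp90b1 and Manf are therefore partly uncertain.

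Promoters were read from RefSeq (GRCm38.p6) from 250 bases before to 50 bases after the transcription start, and 8 of the 10 genes were matched. Hyou1 and Manf were not. The endoplasmic reticulum stress element, searched on both strands as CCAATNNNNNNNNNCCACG, was present in 5 of these 8 promoters (62.5%), against 37 of 27025 gene symbols (0.137%). The second form of the element, in which the blocks ATTGG and CCACG stand 1 base apart, was present in the Dnajb11 promoter and in 12 of the 27025 symbols (0.0444%). Stress elements are known from the promoters of many chaperone genes, as said above, so these shares describe the promoters and test nothing. The matches are printed, each with 5 flanking bases on each side and in the direction of the gene. They are shown because 5 of the 8 promoters held the first form and that of Dnajb11 the second. Capitals mark the fixed bases of the element, and where it reads on the opposite strand they appear as its reverse complement.
Hspa5: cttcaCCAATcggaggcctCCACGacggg
Calr: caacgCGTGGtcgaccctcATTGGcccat
Hsp90b1, upstream copy: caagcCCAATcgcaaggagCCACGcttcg
Hsp90b1, downstream copy: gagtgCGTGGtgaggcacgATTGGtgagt
Canx: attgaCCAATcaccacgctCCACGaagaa
Pdia6: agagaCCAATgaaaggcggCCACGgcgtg
Dnajb11: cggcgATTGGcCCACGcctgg

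Counted from the RefSeq transcription start, the element lay at -65 to -47 in Hspa5 (window chr2:34772020-34772048) and at -162 to -144 in Calr (chr8:84847070-84847098, opposite strand). The Hspa5 window lay inside the gene coordinates given above, which begin upstream of the RefSeq start. Hsp90b1 had a copy at -212 to -194 (chr10:86705633-86705661) and one on the opposite strand at -107 to -89 (chr10:86705528-86705556). The matches in Canx and Pdia6 lay at -145 to -127 (chr11:50325795-50325823) and -98 to -80 (chr12:17266486-17266514), and the second form in Dnajb11 at 7 to 17 (chr16:22857847-22857867). Neither the Pdia4 nor the Sdf2l1 window held either form. The Pdia4 window, chr6:47813463-47813762, lay wholly upstream of the gene end given above. The bases sampled after its start were not found in the transcripts of Pdia4, and whether it holds the start used in these limbs was not tested. The unfolded protein response element TGACGTGG and the core TGATGCAA of the composite ATF4 and C/EBP site were in none of the 8 windows, against 0.714% and 1.03% of the symbols. A match is a run of letters, and no binding was measured here.

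Total counts ran from 17540925 to 27119650 per library. Markers of limb mesenchyme (9 genes) and of chondrocytes (10 genes) were checked for the limb bud label and were above 0 in all 9 groups, as were those of muscle, epidermis, macrophages, endothelium, erythroid cells and osteoblasts. The 50 µM libraries titled 3 h also carry a treatment length of 24 hours in another label field. The protocol text gives 3 h of culture for every library, which conflicts with the titles of the 24 h and 48 h groups. The titles were followed, and in the deposited tables the 50 µM libraries titled 3 h are paired with the 3 h vehicle. Levels are given in CPM, counts scaled to a common library size, and they compare libraries, not genes of different length. A gene was called when its adjusted p in the quasi-likelihood test of edgeR was below 0.05.

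Per kilobase of length, Calr was the most abundant of the 10 in the 3 h vehicle, at 271 ± 27.0 FPKM (the authors' values per length and depth, SD, n = 5 for this and every later group). Hspa5 followed at 159 ± 9.06 and Hsp90b1 at 142 ± 2.73 FPKM. Canx at 94.8 ± 2.36, Pdia6 at 94.6 ± 9.32 and Pdia4 at 86.4 ± 7.77 FPKM overlapped with their neighbours in that order. Dnajb11 at 24.3 ± 2.71, Hyou1 at 20.6 ± 1.15 and Manf at 18.9 ± 1.92 FPKM formed a lower set whose neighbours also overlapped, and Sdf2l1 was lowest at 6.45 ± 0.489 FPKM. The 10 genes together took 0.344% ± 0.0143 of all counts in the 3 h vehicle, 0.389% ± 0.0183 at 10 µM and 0.467% ± 0.0225 at 50 µM.

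**Figure D1:**
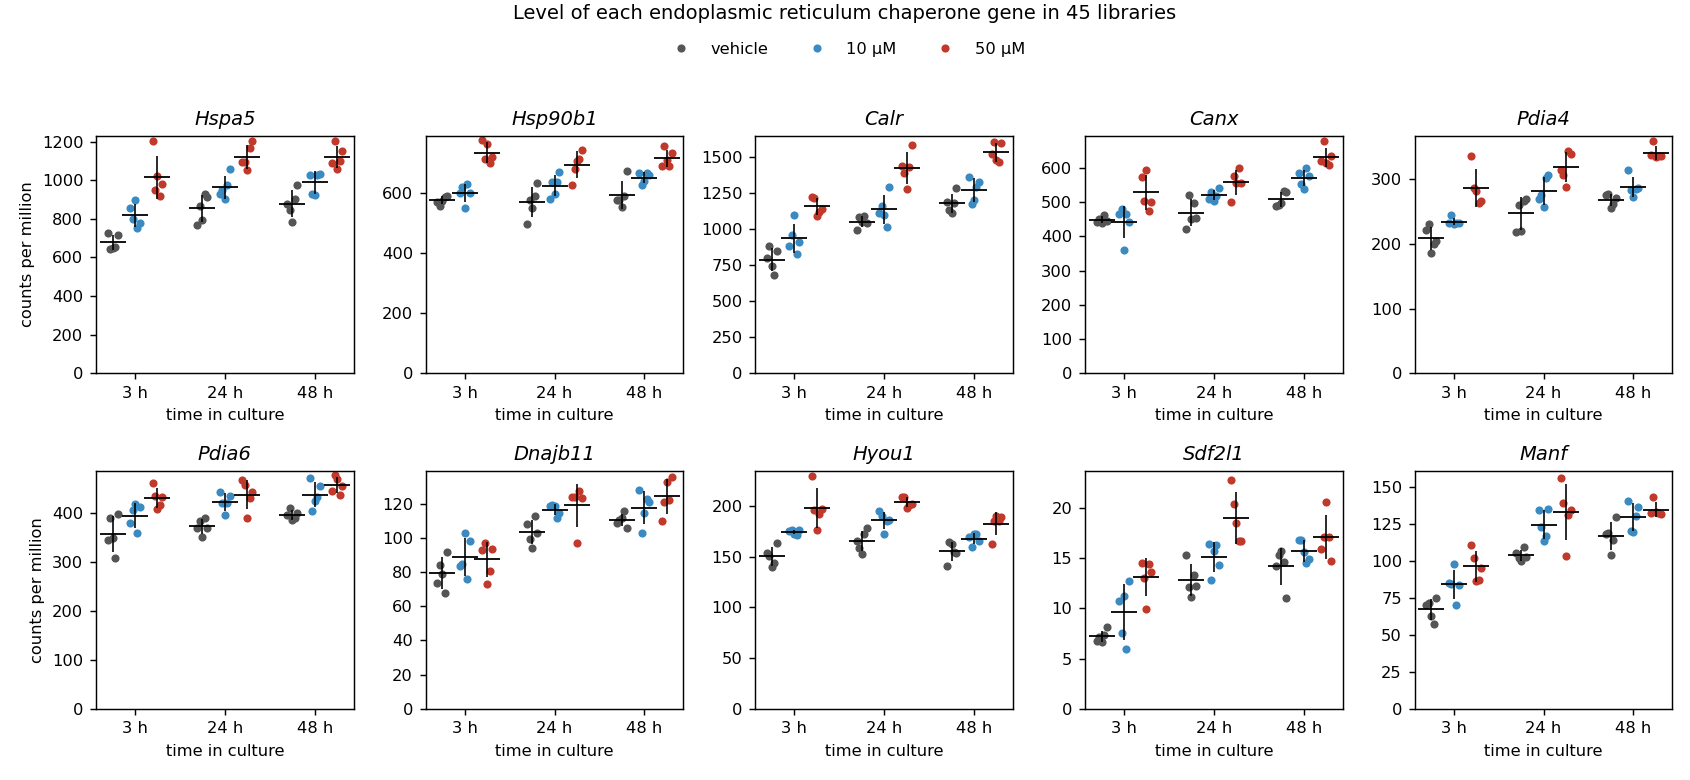
Level of each gene in the 45 libraries, in CPM on an axis that starts at 0, by hours in culture and treatment. Points are libraries, horizontal bars the mean and vertical bars the SD of 5. For Hspa5 at 3 h the vehicle libraries lie at 646 to 727 and the 50 µM libraries at 918 to 1202.

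After 3 h at 50 µM, 7 of the 10 genes were called higher and none lower, where 0.889% of the 16988 genes tested were called higher and 0.518% lower. Sdf2l1 rose 1.82-fold, Hspa5 1.49-fold, Calr 1.47-fold and Manf 1.43-fold. Pdia4, Hyou1 and Hsp90b1 rose 1.37-fold, 1.32-fold and 1.27-fold. The median over the 10 genes was 0.43 on the log2 scale against 0.0 over all genes tested. In bulk tissue, more RNA per cell and more cells of a type that holds the RNA cannot be told apart.

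For Hspa5 the 3 h vehicle libraries had 727, 646, 647, 655 and 715 CPM. The 50 µM libraries had 1202, 949, 1022.5, 918 and 980.0 CPM. Every treated library lay above every vehicle library, and replicate 1 at 50 µM stood highest. The log2 fold change was 0.58 ± 0.071 (SE, adjusted p = 0.000276).

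Sdf2l1, present at few counts, had 6.74, 7.16, 6.68, 7.31 and 8.16 CPM in the vehicle. At 50 µM it had 14.5, 13.0, 9.90, 14.5 and 13.7 CPM. The lowest treated library was still above the highest vehicle library, and the log2 fold change was 0.86 ± 0.12 (adjusted p = 0.00119). Hyou1, which resets the nucleotide state of BiP, had 154, 150.5, 140.3, 144 and 164 CPM in the vehicle and 230.2, 196, 176, 192 and 197 at 50 µM. Its groups did not overlap, and the log2 fold change was 0.40 ± 0.07 (adjusted p = 0.00666). Manf went from 70.0, 71.3, 62.6, 57.4 and 74.7 CPM to 111, 102, 86.1, 86.7 and 95.3 CPM, again with no overlap, and its log2 fold change was 0.52 ± 0.085 (adjusted p = 0.00338). Dnajb11 had the smallest log2 fold change: 73.5, 84.1, 78.7, 68.0 and 92.1 CPM in the vehicle and 93.1, 97.3, 73.3, 80.5 and 93.3 at 50 µM overlapped, at 0.14 ± 0.089 (adjusted p = 0.559).

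Hsp90b1, the Hsp90 of the lumen, had 570.0, 557, 574, 587 and 591 CPM in the vehicle, a narrow group. At 50 µM it had 777, 714, 764, 700.0 and 718 CPM. The groups were apart, and the log2 fold change was 0.35 ± 0.053 (adjusted p = 0.00191).

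The lectin chaperones differed in size. Calr had 796, 879, 743, 679.5 and 844 CPM in the vehicle and 1218, 1216, 1091, 1120.3 and 1136 at 50 µM. The groups did not overlap, and its log2 fold change was 0.55 ± 0.068 (adjusted p = 0.000265). Canx had 439 to 464 CPM in the vehicle and 475 to 593 at 50 µM. Although these ranges were also apart, its log2 fold change of 0.24 ± 0.067 was not called (adjusted p = 0.102).

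Of the disulfide isomerases, Pdia4 had 222, 231, 185, 201 and 205 CPM in the vehicle and 336, 286.5, 282, 263 and 266 at 50 µM. All treated libraries were above all vehicle libraries, and the log2 fold change was 0.45 ± 0.078 (adjusted p = 0.00496). Pdia6 had 307 to 398 CPM in the vehicle and 408 to 461 at 50 µM. Its log2 fold change was 0.27 ± 0.068 and missed the threshold (adjusted p = 0.065). In all, 9 of the 10 genes had no overlap between the groups, against 2.35% of all genes tested with every treated library above every vehicle library. In the authors' deposited table for this comparison 9 genes had an adjusted p below 0.05, including Canx (0.0331) and Pdia6 (0.0171) but not Dnajb11.

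Beside these changes, 1 of 10 macrophage markers, Cx3cr1, was called lower at 50 µM, and edgeR called no marker of muscle, epidermis, endothelium, erythroid cells, osteoblasts, mesenchyme or chondrocytes. The summed level of the 10 muscle markers was 1410.5 to 1523 CPM in the vehicle and 1449 to 1596 at 50 µM.

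**Figure D2:**
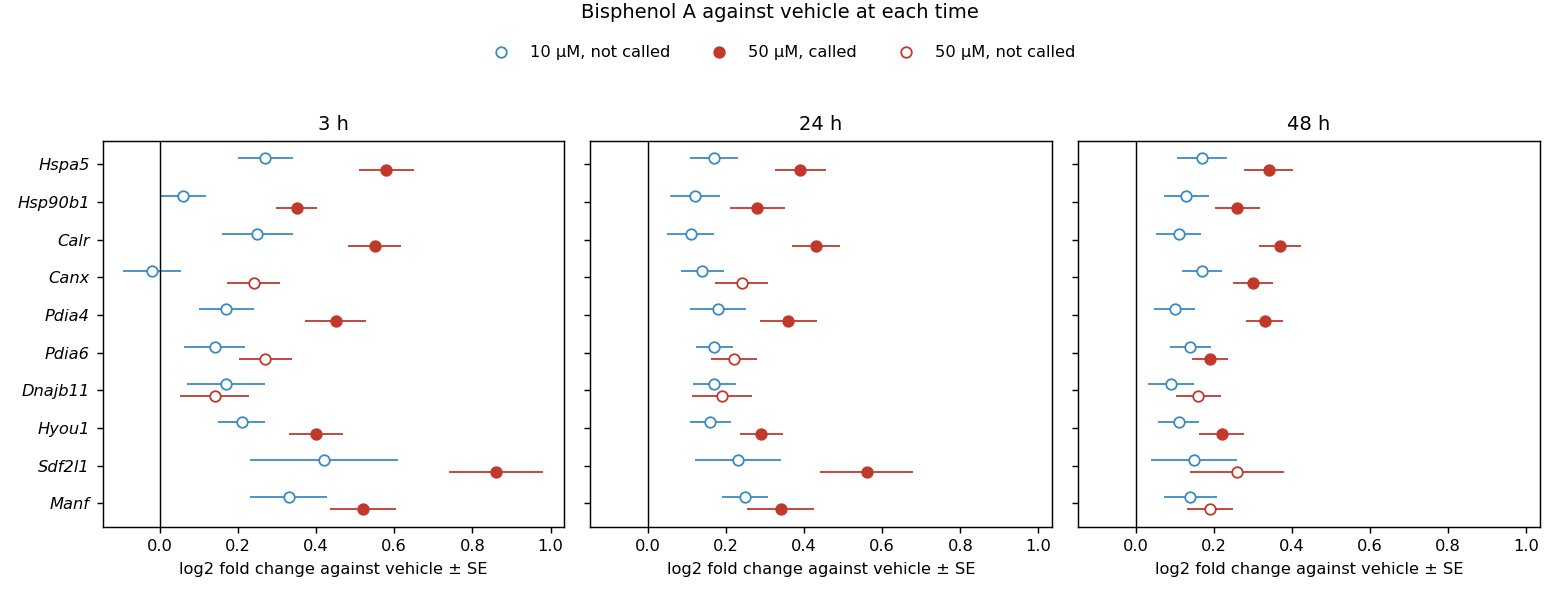
Log2 fold change against vehicle of the same time, with its SE, for each gene at 10 µM (blue) and 50 µM (red), in 1 panel per time. Filled symbols were called and open symbols were not. At 3 h the filled red symbols run from 0.35 (Hsp90b1) to 0.86 (Sdf2l1), and every blue symbol is open.

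After 24 h at 50 µM, 7 of the 10 genes were again called higher and none lower, against 1.37% of the 16841 genes tested called higher and 2.1% lower. They were Sdf2l1 (1.47-fold), Calr (1.35-fold), Hspa5 (1.31-fold), Pdia4 (1.28-fold), Manf (1.27-fold), Hyou1 (1.22-fold) and Hsp90b1 (1.21-fold). The median log2 fold change of the 10 was 0.32, with 0.0 over all genes. The count rested in part on single libraries: it was 4 without replicate 2 at 50 µM, where Hsp90b1, Manf and Sdf2l1 lost their calls, and ran from 4 to 8 when each library was left out in turn.

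Calr had 993, 1081, 1047, 1086.5 and 1042 CPM in the 24 h vehicle. With 50 µM it had 1434, 1385, 1275, 1429 and 1582 CPM. No treated library reached down to the vehicle range, and the log2 fold change was 0.43 ± 0.061 (adjusted p = 0.00127). Hspa5 had 767, 865, 794, 928 and 913 CPM in the vehicle and 1095, 1093, 1051, 1166 and 1202 at 50 µM, with no overlap and a log2 fold change of 0.39 ± 0.065 (adjusted p = 0.00438).

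Sdf2l1 had 15.3, 12.2, 11.1, 13.3 and 12.3 CPM in the vehicle and 22.9, 20.4, 18.5, 16.7 and 16.7 at 50 µM, and its log2 fold change was 0.56 ± 0.12 (adjusted p = 0.0162). Hyou1 had 153 to 178 CPM in the vehicle and 198 to 209 at 50 µM, and was called with a log2 fold change of 0.29 ± 0.055 (adjusted p = 0.00935). Pdia4 had 219 to 270.2 CPM in the vehicle and 289 to 344 at 50 µM, with a log2 fold change of 0.36 ± 0.074 (adjusted p = 0.0151). The groups of Sdf2l1, Hyou1 and Pdia4 were apart, as were those of Calr and Hspa5. These 5 of 10 compare with 2.35% of all genes.

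Manf and Hsp90b1 were called with overlapping groups. For Manf the 50 µM libraries had 156, 139, 104, 131 and 134 CPM and the vehicle 99.9 to 109, so that replicate 3 at 50 µM lay inside the vehicle range. The log2 fold change was 0.34 ± 0.085 (adjusted p = 0.0384). Hsp90b1 had 497 to 635 CPM in the vehicle and 627 to 743 at 50 µM, and a log2 fold change of 0.28 ± 0.07 (adjusted p = 0.0426). Each of these genes lost its call in 8 of the 10 fits that left out 1 library.

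Canx, Pdia6 and Dnajb11 were not called at 24 h in this fit. Their log2 fold changes were 0.24 ± 0.068 (adjusted p = 0.0675), 0.22 ± 0.059 (adjusted p = 0.052) and 0.19 ± 0.077 (adjusted p = 0.222). Canx and Pdia6 were called by DESeq2, with the replicate number as a block and in the fit of all 45 libraries. The replicate numbers were not taken to pair the libraries in this comparison. Pdia6 was also called with median-of-ratios factors and with a stricter filter. Over all alternatives that kept every library the adjusted p of Canx ranged from 0.00763 to 0.0743 and that of Pdia6 from 0.00457 to 0.0916. The count of called genes ranged from 7 to 9. At 24 h 9 genes, all but Dnajb11, had an adjusted p below 0.05 in the authors' deposited table. For Dnajb11, 4 of the 50 µM libraries lay at 123 to 127 CPM and replicate 3 at 96.8 CPM, inside the vehicle range of 94.1 to 113.

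After 48 h at 50 µM, 7 genes were called higher and none lower, against 3.88% of the 16732 genes tested called higher and 5.3% lower. They were Calr (1.29-fold), Hspa5 (1.27-fold), Pdia4 (1.26-fold), Canx (1.23-fold), Hsp90b1 (1.2-fold), Hyou1 (1.17-fold) and Pdia6 (1.14-fold). Canx and Pdia6 were called here, and Sdf2l1, Manf and Dnajb11 were not. The median log2 fold change was 0.26, with 0.0 over all genes. With the replicate number of the labels as a block, 9 were called higher, where that fit called 7.29% of all genes higher, and Dnajb11 (adjusted p = 0.0464) and Manf (adjusted p = 0.0133) joined. Over all alternatives that kept every library, these adjusted p ranged from 0.0464 to 0.256 and from 0.0133 to 0.165. Without the block, Manf was also called by DESeq2 (adjusted p = 0.019), with median-of-ratios or upper-quartile factors and with a stricter filter. In the authors' deposited table for 48 h, 8 genes had an adjusted p below 0.05, all but Dnajb11 and Sdf2l1.

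Calr had 1185, 1134, 1113.5, 1178 and 1281 CPM in the 48 h vehicle and 1518.5, 1600.1, 1475, 1465 and 1598.5 at 50 µM. Its groups were apart and its log2 fold change was 0.37 ± 0.054 (adjusted p = 0.000504). Pdia4 had 276, 277, 255, 262 and 271 CPM in the vehicle. At 50 µM it had 338, 359, 335, 336 and 335 CPM, a group with replicate 2 above 4 libraries that nearly coincided. Its log2 fold change was 0.33 ± 0.047 (adjusted p = 0.000329).

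Hspa5 had 877, 848, 786, 903 and 976 CPM in the vehicle and 1088, 1201, 1058, 1098 and 1151 at 50 µM, and the log2 fold change was 0.34 ± 0.062 (adjusted p = 0.00253). Canx had 489, 492, 498, 533 and 529 CPM in the vehicle and 619.5, 679, 614, 608 and 635 at 50 µM, and the log2 fold change was 0.30 ± 0.051 (adjusted p = 0.00145). The treated libraries of Hspa5 and Canx all lay above the vehicle libraries. Hsp90b1 had 554 to 671 CPM in the vehicle and 688 to 755 at 50 µM, with a log2 fold change of 0.26 ± 0.058 (adjusted p = 0.0101). Pdia6 had 385 to 411 CPM in the vehicle and 438 to 477 at 50 µM, with a log2 fold change of 0.19 ± 0.047 (adjusted p = 0.0152). Together with Manf, 7 genes had no overlap between the groups, against 4.37% of all genes.

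Hyou1 was called with overlapping groups, 141 to 165 CPM and 163 to 191 CPM, and lost its call in 4 of the 10 fits that left out 1 library (log2 fold change 0.22 ± 0.058, adjusted p = 0.0243). Sdf2l1, the gene with the highest fold at 3 h and 24 h, had 14.2, 15.3, 15.7, 14.7 and 11.02 CPM in the vehicle and 15.9, 17.1, 20.7, 17.1 and 14.8 at 50 µM. These groups overlapped, and the log2 fold change was 0.26 ± 0.12 (adjusted p = 0.193). Manf had a log2 fold change of 0.19 ± 0.059 (adjusted p = 0.0524) and Dnajb11 one of 0.16 ± 0.058 (adjusted p = 0.0991).

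Markers of muscle, macrophages and osteoblasts were called lower at 24 h and 48 h at 50 µM. Of 10 skeletal muscle markers, 7 were called lower at 24 h and 8 at 48 h. Their summed level was 2701 to 5029.9 CPM (median 4292) in the 24 h vehicle and 2147 to 2894 (median 2622) at 50 µM, and 4039 to 6321 (median 5519.7) against 1845 to 2988.5 (median 2703.5) at 48 h. Of 10 macrophage markers 3 and then 6 were called lower, with sums of 169 to 202 CPM against 129.6 to 139.8 at 24 h and of 244.96 to 319 against 124 to 237 at 48 h. Of 9 osteoblast and hypertrophic cartilage markers tested 3 and then 2 were called lower, with sums of 3132 to 3669 CPM against 2437 to 3038 and of 6546 to 9259 against 4596.5 to 7737. No marker of epidermis, endothelium, erythroid cells or limb mesenchyme was called at either time. The epidermis sum varied widely in the 24 h vehicle, from 88.0 to 1543 CPM, against 274 to 930.5 at 50 µM. The chondrocyte markers Sox6 and Sox9 were called higher at 48 h, out of 10, and the sum of all 10 was 13890.0 to 18880.0 CPM in the vehicle and 17853 to 23080.0 at 50 µM. The part of these cell types in the chaperone levels at 24 h and 48 h was not tested.

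Whether the response to 50 µM changed with time was tested as the difference between the log2 fold changes at the different times, in 1 fit of all 45 libraries. No chaperone gene was called by edgeR or by DESeq2 for 24 h against 3 h (0.592% of all genes called), 48 h against 24 h (0.0%) or 48 h against 3 h (1.96%). At an unadjusted p below 0.05 there were 1, 0 and 4 genes, against 9.75%, 3.33% and 11.7% of all genes. For 48 h against 3 h they were Sdf2l1 (difference -0.60 ± 0.19, adjusted p = 0.107), Manf (-0.32 ± 0.12, adjusted p = 0.196), Hspa5 (-0.24 ± 0.094, adjusted p = 0.245) and Hyou1 (-0.17 ± 0.076, adjusted p = 0.325). These values are negative, which means a smaller log2 fold change at 48 h, and without replicate 3 of the 3 h 50 µM group Sdf2l1 was called (-0.68, adjusted p = 0.0434, range 0.0434 to 0.201 when each library was left out).

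At 10 µM edgeR without the replicate block called no chaperone gene at 3 h, 24 h or 48 h, and DESeq2 called none. With the block edgeR called 2 genes at 24 h, given below. Without it, 0.0%, 0.0% and 0.00591% of all genes were called. At an unadjusted p below 0.05, 6, 7 and 5 of the 10 genes were higher and none lower, against 3.2%, 2.39% and 3.08% of all genes tested. The median log2 fold changes over the 10 genes were 0.19, 0.17 and 0.14, where those over all genes were 0.01, 0.0 and 0.0. The 10 µM and 50 µM comparisons use the same vehicle libraries, so their values are given side by side only.

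Hspa5 had 858, 799, 899, 753 and 780.0 CPM at 10 µM after 3 h, between the groups given above for vehicle and 50 µM. These libraries did not overlap with the vehicle, and the log2 fold change was 0.27 ± 0.07 (unadjusted p = 0.00172, adjusted p = 0.7). Hyou1 had 176, 176, 172, 172 and 176 CPM, the other gene of the 10 whose 10 µM libraries all lay above the vehicle at 3 h, where 0.717% of all genes did. Sdf2l1 was spread widely at 10 µM, 10.8, 7.55, 11.3, 5.95 and 12.7 CPM, with replicate 4 below every vehicle library. Its log2 fold change was 0.42 ± 0.19 (adjusted p = 0.7). Canx, at 360.1 to 479 CPM, had a log2 fold change of -0.02 ± 0.073 (adjusted p = 0.927).

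At 24 h the 10 µM libraries of Manf had 134, 123, 114, 117 and 135 CPM, all above the vehicle range of 99.9 to 109 CPM, and the log2 fold change was 0.25 ± 0.059 (unadjusted p = 0.000695, adjusted p = 0.584). Pdia6 was the other gene without overlap, against 0.51% of all genes, at 395 to 442 CPM (log2 fold change 0.17 ± 0.047, adjusted p = 0.769). With the replicate number as a block, 2 genes were called higher at 24 h, where that fit called 0.299% of all genes higher: Manf (adjusted p = 0.0217, range 0.0217 to 0.87 over the alternatives) and Pdia4 (adjusted p = 0.0386, range 0.0386 to 1.0). At 48 h Canx alone was without overlap, where 0.727% of all genes were, with 586, 553, 538.5, 599 and 578 CPM at 10 µM and a log2 fold change of 0.17 ± 0.051 (adjusted p = 0.617).

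By mean level the order vehicle, 10 µM, 50 µM held for 8 of 10 genes at 3 h and for all 10 at 24 h and 48 h, where 17.5%, 24.9% and 23.9% of all genes were in that order. Canx and Dnajb11 were the exceptions at 3 h. Directly compared at 3 h, 5 genes were called higher at 50 µM than at 10 µM, against 0.353% of all genes called higher. They were Hspa5 (log2 difference 0.31 ± 0.066, adjusted p = 0.00986), Hsp90b1 (0.29 ± 0.055, adjusted p = 0.00174), Calr (0.30 ± 0.069, adjusted p = 0.0182), Canx (0.26 ± 0.061, adjusted p = 0.0262) and Pdia4 (0.29 ± 0.065, adjusted p = 0.0172). The count was 1 without replicate 1 at 50 µM, 3 without replicate 5 at 10 µM and 0 when only these 2 groups were fitted.

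At 24 h Calr alone was called higher at 50 µM than at 10 µM, although all 10 log2 differences were above 0 (0.33 ± 0.069, adjusted p = 0.0103), against 0.26% of all genes, and it was not called without replicate 5 at 50 µM (adjusted p = 0.0551). At 48 h Calr (0.27 ± 0.069, adjusted p = 0.0151) and Pdia4 (0.24 ± 0.065, adjusted p = 0.0245) were called higher, against 1.02% of all genes. Calr had 1359.5, 1176, 1197, 1293 and 1325 CPM at 10 µM, all below the 50 µM libraries. Neither was called without replicate 3 at 10 µM, and 1 was called without replicate 2 or 4 at 10 µM or replicate 2 at 50 µM. For Dnajb11 the difference between the doses was -0.03 ± 0.083 at 3 h, 0.03 ± 0.082 at 24 h and 0.08 ± 0.082 at 48 h.

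In vehicle cultures the chaperone genes also changed with time. Between 3 h and 24 h, 6 of the 10 were called higher and none lower, where 16.3% of the 17081 genes tested were called higher and 13.8% lower. Sdf2l1 rose 1.79-fold, Manf 1.56-fold, Calr 1.34-fold, Dnajb11 1.32-fold, Hspa5 1.27-fold and Pdia4 1.19-fold. The median log2 change of the 10 was 0.30, with 0.0 over all genes. Between 3 h and 48 h 7 were called higher, Canx (1.13-fold) being added, and none lower, against 23.9% and 22.9% of all genes, and the median was 0.37 against -0.01.

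**Figure D3:**
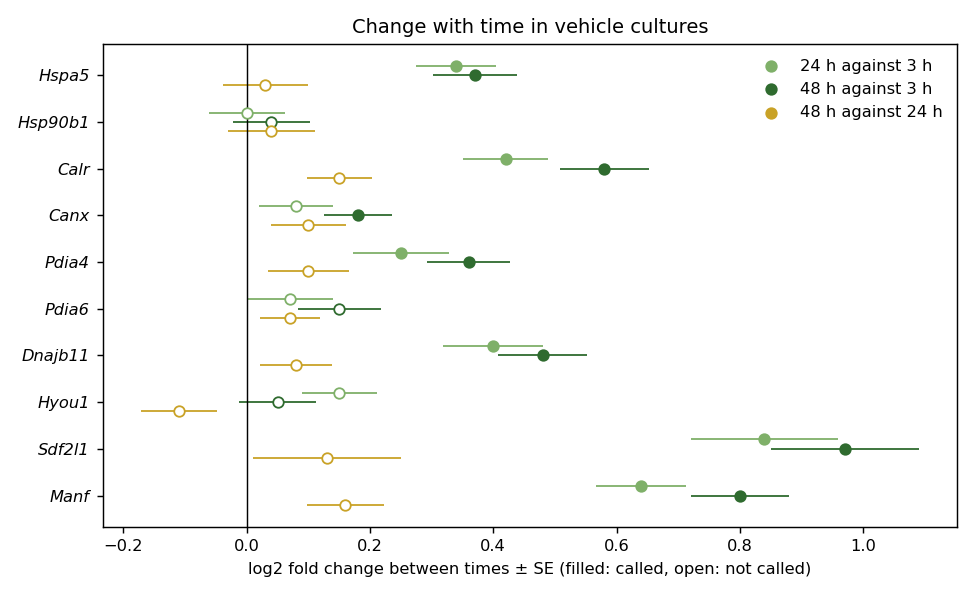
Log2 fold change between times in vehicle cultures with its SE, for each gene. Filled symbols were called and open symbols were not. Sdf2l1 and Manf lie farthest to the right, at 0.97 and 0.80 for 48 h against 3 h, and Hsp90b1 and Hyou1 lie near 0, at 0.04 and 0.05.

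Sdf2l1 had 15.3, 12.2, 11.1, 13.3 and 12.3 CPM in the 24 h vehicle, all above the 3 h libraries given before, and the log2 fold change was 0.84 ± 0.12. Manf at 24 h had 106, 102, 99.9, 109 and 103 CPM, also with no overlap (log2 fold change 0.64 ± 0.073). Dnajb11 was called at 50 µM with the replicate block at 48 h. In no comparison with BPA was it called without the block when every library was kept. At 24 h in the vehicle its libraries had 108, 99.3, 94.1, 113 and 103 CPM. These were above all 3 h vehicle libraries, and the log2 fold change was 0.40 ± 0.081 (adjusted p = 0.00168). For Hsp90b1 the calls fell the other way: it was called at 50 µM at each time and had a log2 change of 0.00 ± 0.062 between 3 h and 24 h in the vehicle (adjusted p = 0.975). Hyou1, with 0.15 ± 0.061 (adjusted p = 0.0776), and Pdia6, with 0.07 ± 0.07 (adjusted p = 0.477), were likewise not called over this interval. The 3 h and 24 h vehicle libraries enter both these comparisons and those with BPA. The call of Pdia4 was lost in 4 of the 10 fits that left out 1 library.

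From 24 h to 48 h no chaperone gene was called in the vehicle by edgeR, against 5.44% of all genes called higher and 3.02% lower. At an unadjusted p below 0.05 there were 2, both higher, against 21.4% of all genes, namely Calr (0.15 ± 0.053, adjusted p = 0.1) and Manf (0.16 ± 0.062, adjusted p = 0.154), and DESeq2, which called 7.48% of all genes higher, called Calr alone (adjusted p = 0.0365, range 0.0365 to 0.255 over the alternatives). The summed chondrocyte markers were 4083 to 4900.0 CPM at 3 h, 9504 to 12260.0 at 24 h and 13890.0 to 18880.0 at 48 h in the vehicle, and their part in the rise of the chaperone genes was not tested.

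Across the 9 groups, the vehicle at 3 h had the lowest mean for 8 of the 10 genes. Hsp90b1 was lowest in the 24 h vehicle and Canx at 10 µM after 3 h. The ratio of the highest to the lowest group mean was 2.64 for Sdf2l1, 2.0 for Manf, 1.94 for Calr, 1.65 for Hspa5 and 1.63 for Pdia4. For Dnajb11, Canx, Hyou1, Hsp90b1 and Pdia6 it was 1.57, 1.43, 1.36, 1.29 and 1.28. When the groups were ordered by mean, 7 or 8 of the 8 neighbouring pairs overlapped for each gene.

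The genes varied in how closely they followed their common profile, the median over the 10 of each gene's log2 CPM less its own mean over the groups. That profile ran from -0.39 in the 3 h vehicle to 0.06 at 50 µM after 3 h, -0.02 in the 48 h vehicle and 0.28 at 50 µM after 48 h. Pdia4 was nearest to it, with a root mean square difference of 0.022, then Hspa5 at 0.045 and Canx at 0.075. Sdf2l1, at 0.225, and Manf, at 0.159, were farthest. This difference counts the size of a profile as well as its shape. From the 3 h vehicle to 50 µM after 24 h, Sdf2l1 ran from -0.86 to 0.52 and Manf from -0.67 to 0.30. The median ran from -0.39 to 0.22 between these groups. Among 10459 other genes with a mean of at least 10 CPM, whose median difference was 0.242, the nearest were Tex264 (0.056), Elovl6 (0.064), Smad7 (0.065), Rpn1 (0.065), Dnajb9 (0.07) and Tcn2 (0.07), over 9 group means. Tex264 encodes a membrane receptor for turnover of the endoplasmic reticulum, Rpn1 a subunit of the oligosaccharyltransferase, and Dnajb9 a J-domain cochaperone of BiP. Elovl6 is a fatty acid elongase, Smad7 an inhibitor of transforming growth factor beta signalling and Tcn2 a vitamin B12 carrier.

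**Figure D4:**
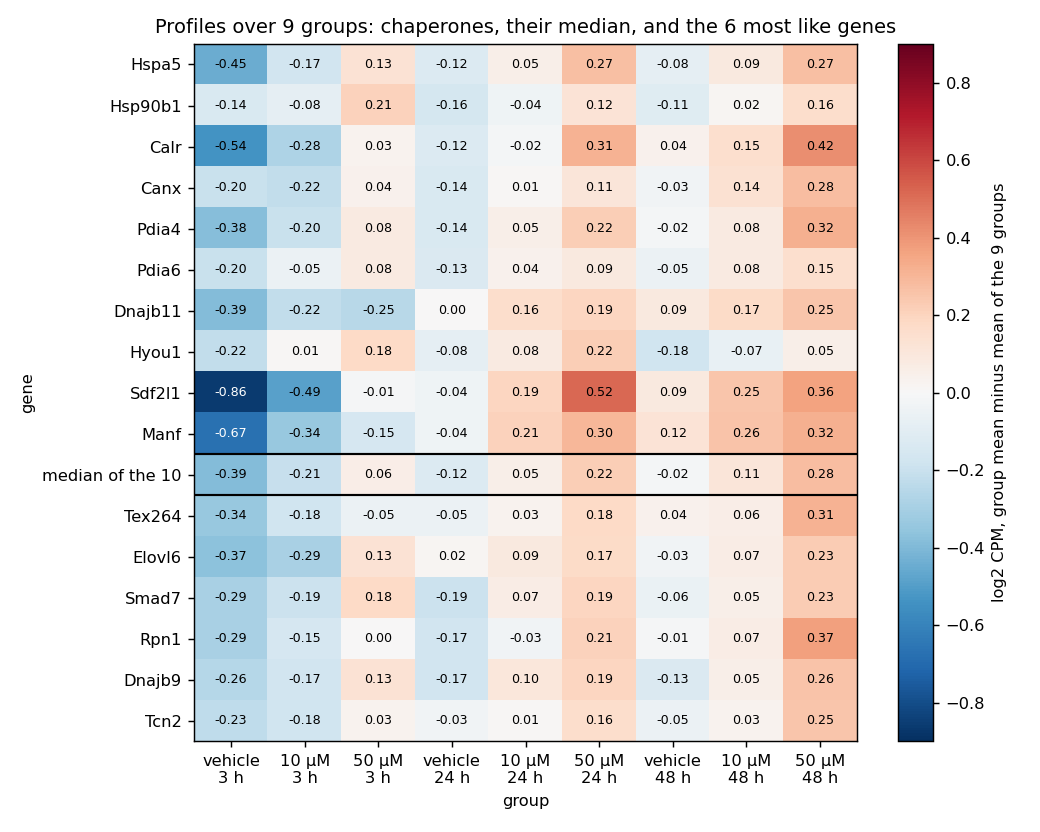
Group mean of log2 CPM less the mean over the 9 groups, for the 10 genes, their median and the 6 genes nearest to that median. Colour and printed number give the same value. The median row runs from -0.39 in the 3 h vehicle to 0.28 at 50 µM after 48 h.

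Other genes of the pathway were described from 4 lists. Of all genes tested at 50 µM, 0.889%, 1.37% and 3.88% were called higher at 3 h, 24 h and 48 h, and 0.518%, 2.1% and 5.3% lower. Of the other folding factors of the endoplasmic reticulum, 3 of 33 tested were called higher at 50 µM after 3 h, 3 of 32 after 24 h and 6 of 32 after 48 h, and none lower. Their median log2 fold changes were 0.12, 0.08 and 0.13. Creld2, a secreted stress-response factor, Txndc11, a thioredoxin-domain protein, and Dnajb9 rose 1.39-fold, 1.24-fold and 1.30-fold at 3 h. At 24 h Serpinh1, the collagen chaperone, rose 1.27-fold, Fkbp14, a collagen prolyl isomerase, rose 1.21-fold and Dnajb9 rose 1.29-fold. Serpinh1 was also called at 48 h (1.26-fold, adjusted p = 0.00166), as were Fkbp14, Txndc11, Creld2 and Dnajb9.

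Of the sensors, factors and disposal genes of the unfolded protein response, 6, 6 and 9 of 23 were called higher at 3 h, 24 h and 48 h and none lower, with medians of 0.15, 0.17 and 0.19. At 3 h they included Xbp1, the transcription factor spliced by the Ern1 product (1.42-fold, adjusted p = 0.000339), Herpud1, a disposal factor (1.38-fold, adjusted p = 0.00104), Syvn1, the ubiquitin ligase of disposal (1.29-fold, adjusted p = 0.0094), and Ddit3, which encodes the stress factor CHOP (1.48-fold, adjusted p = 0.0114). Derl3, a membrane protein of disposal, had 5.36 CPM at 50 µM and 2.09 in the vehicle on average at 3 h (2.57-fold). Xbp1 was not called at 24 h (1.13-fold, adjusted p = 0.222) or 48 h (1.11-fold, adjusted p = 0.228). Trib3, a target of ATF4 and CHOP, was called at 24 h (1.88-fold) and 48 h (2.53-fold), and Atf4 was 1.30-fold and 1.24-fold higher there. The sensor genes Ern1, Eif2ak3 and Atf6 were not called at any time, with log2 fold changes of -0.03 to 0.24.

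**Figure D5:**
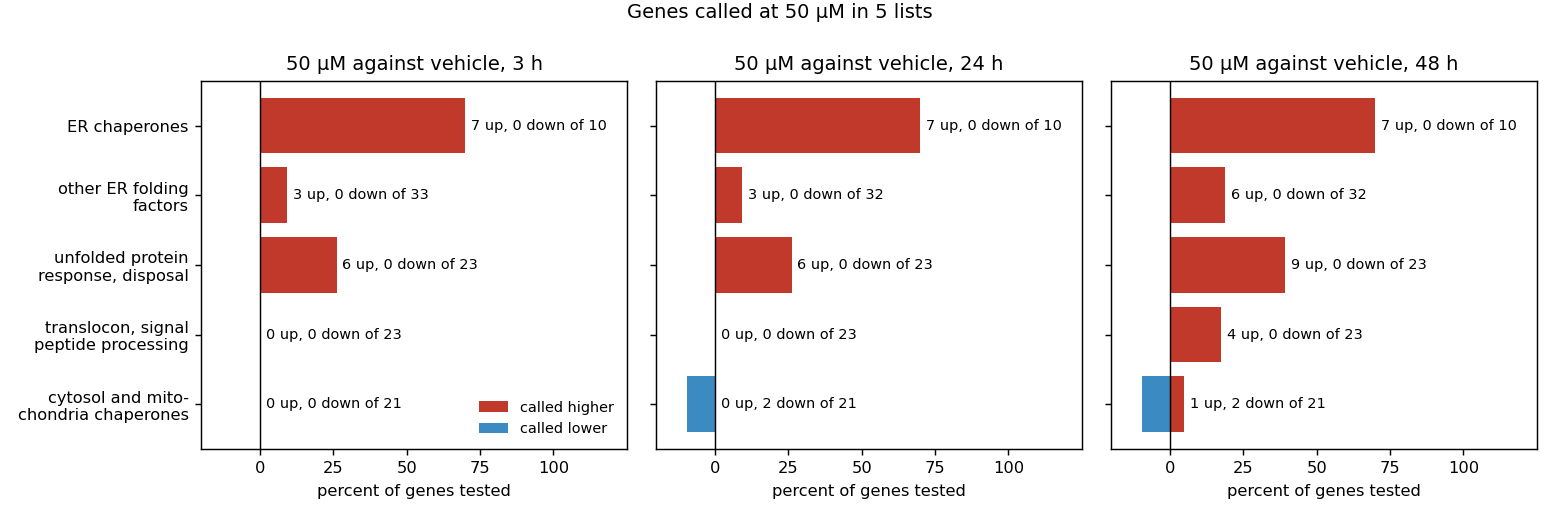
Percent of tested genes called higher (red) and lower (blue) at 50 µM against vehicle in 5 lists, in 1 panel per time, with counts printed beside each bar. The chaperone genes stand at 7 of 10 in each panel and the translocon list at 0, 0 and 4 of 23.

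The translocon and signal peptide processing list had 0, 0 and 4 of 23 genes called higher and none lower, and medians of 0.05, 0.10 and 0.09. The 4 were Ssr3, Sec61a1, Spcs2 and Spcs3, at 1.18-fold, 1.15-fold, 1.15-fold and 1.19-fold. For 21 chaperones of the cytosol and mitochondria, none was called at 3 h, 2 lower at 24 h, and 1 higher and 2 lower at 48 h, with medians of 0.06, -0.04 and -0.03. Hspb1 and Cryab, small heat shock proteins that are abundant in muscle, were the lower genes. Their log2 fold changes were -1.04 and -0.95 at 24 h and -1.21 and -1.32 at 48 h. Muscle markers were also lower at these times, and any part of muscle in the values of Hspb1 and Cryab was not tested. The gene called higher was Hspa9, the mitochondrial Hsp70 (1.15-fold at 48 h). At 10 µM after 3 h the medians of these 4 lists, in the order given, were 0.09, 0.09, 0.10 and 0.04, with 0.01 over all genes.

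Genes outside the 10 whose promoter windows held the first form of the stress element numbered 32 symbols, of which 24 were in the tables and 17, 16 and 16 were tested at 50 µM. This list was chosen after seeing the data. Of them 3, 1 and 6 were called higher at 3 h, 24 h and 48 h and none lower, with medians of 0.10, 0.11 and 0.17. Of all genes tested 0.889%, 1.37% and 3.88% were called higher. Derl3 was called at each time, and Creld2 and Syvn1 at 3 h and 48 h. These genes, the only ones called at 3 h, also belong to the folding factor or unfolded protein response lists above and are counted there too. Among the 10 chaperone genes, the 2 promoter windows with neither form belonged to Pdia4 and Sdf2l1, both called at 3 h and 24 h. Dnajb11, with the second form, was not called at 50 µM at 3 h, 24 h or 48 h without the replicate block, and was called with it at 48 h. The Pdia4 window may not hold the start of that gene, as said above. Any role of the element in these calls was not tested.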

How the data were processed

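RNA was measured in 45 libraries, and groups were taken from the titles. The authors deposited 9 tables, 1 per comparison, with read counts per gene, FPKM values, a signal that is the count divided by a size factor, and their own log2 fold changes with p-values. Per the submitters' processing notes, CASAVA 1.8, STAR 2.5, HTSeq 0.6.1, DESeq2 2 and the build mm10 were used, with no role or setting given. The deposited counts of a library were the same wherever 2 tables listed a gene, and a gene missing from a table was taken from another. Depth was 17540925 to 27119650 counts per library.

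The deposited counts were tested with the quasi-likelihood test of edgeR 4.0.16 in R 4.3.3 after TMM scaling and a filter on low counts (minimum count 10, total 15), and p-values were adjusted by Benjamini-Hochberg over all genes tested. Comparisons with vehicle and between times in vehicle were fitted on the 10 libraries compared, and those between doses and between responses on all 45. The SE was derived from the estimate and its F statistic. CPM uses TMM factors over all 45 libraries, and the deposited signal was not used. FPKM and the authors' p-values were copied as deposited. Scripts were tested on simulated data. Python 3.11.15 was used for the summaries.

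Replicate numbers come from the titles, and same-numbered libraries were checked for shared deviations from their group means. The correlation was over 0.1 for every pair at 50 µM after 48 h (0.151 to 0.317) and at 10 µM after 24 h (0.107 to 0.459) and 48 h (0.154 to 0.505). The numbers were treated as pairing the libraries there, and the fit with the number as a block is given where it changed a call. Libraries of unlike number were not compared, so the check does not settle whether these libraries were paired. The alternatives were DESeq2 1.42.0, other scalings and filters, the block, other sets of libraries in the fit, and each library left out in turn.

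All 10 genes were named in every comparison. From each other list up to 4 called genes per comparison were to be named, and further ones were named after their values were seen. The genes, the lists and the promoter patterns were chosen with earlier results of these data known. Library codes of replicates 1 and 2 at 10 µM after 48 h are exchanged against the titles, and the titles were followed.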

Additional observations from a re-analysis of the deposited data

Results flagged for a closer look

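In 5 of the 90 sets of 5 libraries (10 genes in 9 groups), 1 library lay far from the other 4 by the ratio of its gap to the range of the group (critical value 0.71). Chance flags about 1 in 20 groups. Pdia4 had 244.2 CPM in replicate 2 of the 3 h 10 µM group, with the others at 230.5 to 232.9, and 359 CPM in replicate 2 of the 48 h 50 µM group, with the others at 335 to 338. Manf was also highest in that library, at 143 CPM, with the others at 131 to 133. Hyou1 was lowest in replicate 1 of the same group, at 163 CPM, with the others at 185 to 191. Dnajb11 was lowest in replicate 3 of the 24 h 50 µM group, at 96.8 CPM, with the others at 123 to 127.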

How the results depend on the processing

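No direction of a called gene was reversed under any alternative. Counts of chaperone genes called moved by more than 1.5 times in these cases. At 10 µM after 24 h the replicate block gave 2 where 0 were called without it. In vehicle, 48 h against 24 h, DESeq2 gave 1 where edgeR gave 0. For 50 µM against 10 µM, fitting only the groups compared gave 0 at 3 h in place of 5, and no filter on low counts gave 1 at 48 h in place of 2. When each library was left out in turn, the counts ran from 4 to 8 at 50 µM after 24 h. For 50 µM against 10 µM they ran from 1 to 5 at 3 h, 0 to 1 at 24 h and 0 to 2 at 48 h, and for the response at 48 h against 3 h from 0 to 1. The cause of these differences was not tested. The block raised the count at 50 µM after 48 h from 7 to 9. At 50 µM after 3 h and 24 h, at 10 µM after 3 h and between times in vehicle, not every pair of same-numbered libraries reached 0.1 (lowest 0.0385, 0.0356, -0.0191, -0.112, -0.0374 and -0.00115). The numbers were therefore not taken to pair the libraries there. Libraries of unlike number were not compared, so the check cannot tell in any comparison whether the libraries were paired.

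Counts over all genes depended more on the setting. At 50 µM after 3 h edgeR called 239 genes, DESeq2 594 and the fit of all 45 libraries 463. After 24 h the counts were 585, 1008 and 885, and 1180 with the block. After 48 h they were 1536 and 2598 with the block. At 10 µM they were 0, 0 and 1 with edgeR without the block and 17, 17 and 53 with DESeq2. For 50 µM against 10 µM at 3 h they were 119, 186 with DESeq2 and 21 with only the groups compared. Sdf2l1 had the lowest counts of the 10 genes, and no alternative varied the depth.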

Other observations

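Other folding and transport genes changed with time in vehicle cultures. Between 3 h and 48 h, 22 of 32 other folding factors of the endoplasmic reticulum were called higher and 2 lower, as were 13 of 23 genes of the translocon list with none lower, and 13 higher and 1 lower of 23 in the unfolded protein response list. Of 21 chaperones of the cytosol and mitochondria 4 were called higher and 9 lower. Of all genes tested 23.9% were called higher and 22.9% lower in this comparison. The medians of these lists were 0.38, 0.20, 0.25 and -0.06 on the log2 scale, with -0.01 over all genes.

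In each group of 5 libraries, the library that was most often highest was so for 3 to 6 of the 10 chaperone genes, and the one most often lowest for 4 to 8. Replicate 4 of the 3 h 10 µM group was lowest for 8 of the 10 genes, replicate 3 of the 24 h 50 µM group for 7, and replicate 1 of the 3 h 50 µM group was highest for 6. The median SD of the 10 genes within a group was 0.0658 to 0.136 on the log2 scale, where the median over all genes was 0.186 to 0.259. These sets were not matched for level, so the values do not show that the chaperone genes vary less than genes as abundant.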
